A study of Mus musculus with 6 samples.

Results

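Classical cadherins are the calcium-dependent adhesion receptors of adherens junctions. This account follows 6 of their genes, Cdh1, Cdh2, Cdh3, Cdh4, Cdh6 and Cdh11, in mouse embryonic stem cells whose Cdh1 gene was disrupted. The 6 genes were taken by symbol from the 55401 genes of the count table. RNA was sequenced from V6.5 cells, an embryonic stem cell line made from hybrid mouse embryos, in 2 genotypes, WT and Cdh1-/- (called the knockout here), with 3 libraries each named A, B and C. Values given per library follow the order A, B, C. How the gene was disrupted, whether the knockout cells descend from a single clone, and whether the libraries came from separate cultures are not given in the sources used here. The p-values therefore measure the spread between these libraries, which may be technical.

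A classical cadherin spans the membrane once. Its outer domains bind a cadherin on the neighbouring cell, and its cytoplasmic tail binds beta-catenin or plakoglobin and p120-catenin, which link it to actin through alpha-catenin. Cdh1 (E-cadherin), Cdh2 (N-cadherin), Cdh3 (P-cadherin) and Cdh4 (R-cadherin) are type I classical cadherins, and Cdh6 (K-cadherin) and Cdh11 (OB-cadherin) are type II. E-cadherin holds the compact colonies of mouse embryonic stem cells together, while N-cadherin is typical of neural and mesenchymal cells and cadherin-11 of mesenchyme and bone-forming cells.

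The end of the tail, part of the region that binds beta-catenin, holds a stretch that was alike in these genes. The longest identical run between the coding sequences of Cdh1 and Cdh4 was 23 bases long and ended 22 bases before the end of the Cdh1 coding sequence. The stretch is shown for 5 genes from the GENCODE M21 transcripts (build GRCm38), because it shows how far type I and type II genes match there at the level of bases. Capitals mark bases identical to that Cdh1 run, and each line reads 5′ to 3′ on the coding strand.
Cdh1: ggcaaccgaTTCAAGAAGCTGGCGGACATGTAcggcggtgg
Cdh3: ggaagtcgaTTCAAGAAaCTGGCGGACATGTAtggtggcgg
Cdh4: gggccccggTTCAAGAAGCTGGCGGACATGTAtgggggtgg
Cdh6: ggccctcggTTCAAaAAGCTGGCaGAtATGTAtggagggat
Cdh11: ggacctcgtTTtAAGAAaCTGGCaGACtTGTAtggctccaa
The stretches lie at chr8:106668562-106668602 (plus strand) for Cdh1, chr8:106555397-106555437 (plus) for Cdh3 and chr2:179895865-179895905 (plus) for Cdh4. Those of the type II genes lie at chr15:13034222-13034262 (minus) for Cdh6 and chr8:102634339-102634379 (minus) for Cdh11. Of the 23 bases, 22 were the same in Cdh3, 20 in Cdh6 and 19 in Cdh11.

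Long identical stretches, which could let a read fit more than one gene, were not found. Among the 15 pairs of the 6 genes, 0 stretches of 50 bases were shared between their compared transcripts (the one with the longest coding part for each gene), and the longest identical coding run was 26 bases, between Cdh1 and Cdh2. Over the aligned coding bases, identity was highest between Cdh2 and Cdh4 at 66.7%, followed by Cdh1 and Cdh3 at 63.6% and Cdh6 and Cdh11 at 61.9%, and the other pairs lay between 53.6% and 59.7%. The exons of the 6 genes overlapped 0 bases of any other gene in the table on either strand, so the strand setting of the counting, which is not given in the sources used here, does not bear on them. Cdh3 and Cdh1 are neighbours on chromosome 8, in the same orientation and 46.1 kb apart.

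Libraries held between 18020719 and 23381942 counts. Markers of embryonic stem cells were abundant in both genotypes: the summed level of 10 marker genes, Pou5f1, Nanog and Sox2 among them, lay between 8572 and 8647 TPM in WT and between 9390 and 10589 TPM in the knockout. Most abundant of the 10 were Dppa5a (mean 3356 TPM in WT and 3858 TPM in the knockout) and Tdgf1 (1695 and 2554 TPM). TPM is the count per exon length, scaled to the same sum in every library, and is used here to compare genes. CPM, the count relative to the TMM-scaled library total, is used to compare libraries. Among all 17325 genes with enough counts to be tested, 2307 (13.3%) were called, that is, had an adjusted p under 0.05 by the quasi-likelihood test of edgeR. Of the tested genes, 7.6% were called higher in knockout cells and 5.71% lower. Leaving out a WT library lowered the number to 1374 (replicate A) or 1470 (replicate B), and leaving out knockout replicate A raised it to 2784. The chi-square per degree of freedom over gene counts between knockout libraries was 17.9 (A and B), 18.4 (A and C) and 8.89 (B and C). Between WT libraries it was 8.14 (A and B), 9.97 (A and C) and 11.7 (B and C). Knockout replicate A thus differed most, and its part in the calls was not tested. Libraries of the genotypes did not overlap in 30.7% of the tested genes. Of the 10 embryonic stem cell markers, 2 were called higher and 1 lower (30%, beside 13.3% of all tested genes). Tdgf1 rose (log2 fold change 0.63, adjusted p 0.000175, edgeR) and Lin28a fell (-0.79, adjusted p 2.4e-05, edgeR). Fgf4 rose by 0.29 (adjusted p 0.0352, edgeR) and lost its call without WT replicate A or B or knockout replicate B or C. Without knockout replicate A, Nanog (adjusted p 0.00580, edgeR) and Zfp42 (adjusted p 0.000347, edgeR) were called higher as well.

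All 6 cadherin genes passed the filter on low counts. Cdh1 and Cdh2 fell in the knockout and Cdh4 rose, while Cdh3, Cdh6 and Cdh11 did not pass the test. The 3 called genes (50%) stand beside the 13.3% of all tested genes, and 1 of them is the gene that was disrupted. The genotypes did not overlap in 4 of the 6 genes, beside 30.7% of all tested genes, and these included the disrupted Cdh1 and the uncalled Cdh6. The median log2 fold change of the 6 was -0.40, and of the 5 other than Cdh1 it was -0.12, against -0.01 for all tested genes. In these bulk libraries, fewer cells of a type and less RNA per cell cannot be told apart.

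**Figure D1:**
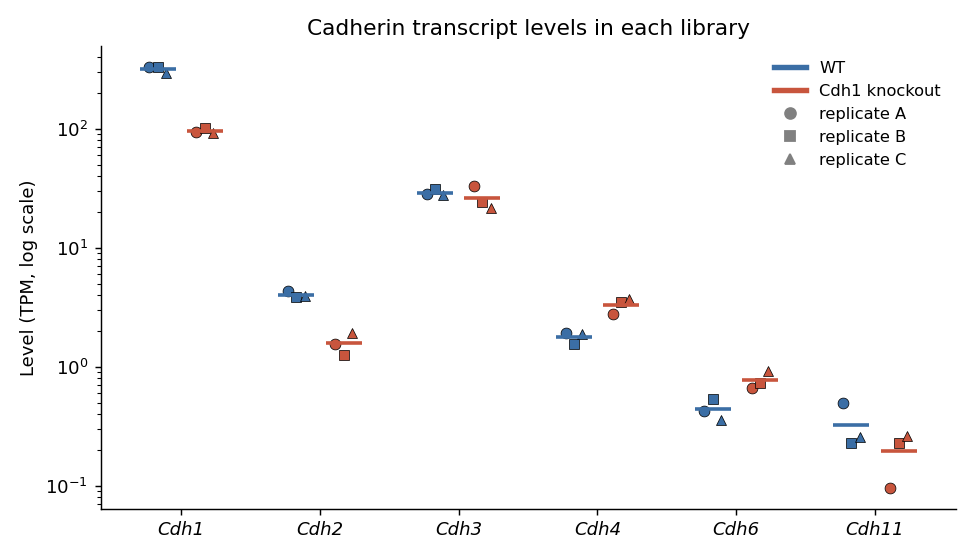
Level of each cadherin gene in TPM on a log scale, with a symbol per library (circle A, square B, triangle C), WT in blue and knockout in red, and the mean of 3 libraries as a bar. Cdh1 drops from a mean of 318 to 95.4 TPM and stays the highest, Cdh2 and Cdh4 exchange places, and Cdh3 overlaps between genotypes.

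Cdh1 was the most abundant of the 6 in every library of both genotypes. Its level was 330, 327 and 295 TPM in the WT libraries and 93.6, 101 and 91.4 TPM in the knockout libraries. The knockout libraries thus lay close together and far below WT. The mean fell from 318 ± 19.7 to 95.4 ± 5.22 TPM (SD, n = 3 each), a loss of 222 TPM, and Cdh1 moved from rank 398 to rank 1857 among the 17325 tested genes by TPM. Its log2 fold change was -1.70 (95% interval -1.87 to -1.52, adjusted p 2.9e-08, edgeR), which ranked 3 by p among all tested genes. Since all exons of the gene share a single count, the origin of the remaining reads within the transcript could not be seen, and protein was not measured.

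Cdh3, which encodes P-cadherin of placenta and basal epithelia, ranked second in both genotypes. It was counted at 28.2, 31.3 and 27.7 TPM in the WT libraries and at 32.7, 24.2 and 21.7 TPM in the knockout libraries. Knockout replicate A was the highest of all libraries and replicates B and C were the lowest, so the genotypes overlapped. The knockout spread more, with 46.8 ± 10.1 CPM against 50.7 ± 2.99 CPM for WT (SD, n = 3 each). The log2 fold change of Cdh3 was -0.12 with a 95% interval from -0.40 to 0.17 (adjusted p 0.643, edgeR), which leaves room for a fall or a small rise. Its value depended on single knockout libraries. The log2 fold change was 0.0071 without knockout replicate C (adjusted p 0.985, edgeR) and -0.30 without knockout replicate A (adjusted p 0.0742, edgeR).

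Cdh2 and Cdh4, the closest pair by coding sequence, moved in opposite directions. Cdh2 was counted at 4.35, 3.84 and 3.93 TPM in the WT libraries and at 1.54, 1.25 and 1.93 TPM in the knockout libraries. All WT libraries lay above all knockout libraries, and 40.1% of the WT level in CPM was left. Mean levels were 4.04 ± 0.270 TPM for WT and 1.58 ± 0.342 TPM for the knockout (SD, n = 3 each). The log2 fold change of Cdh2 was -1.32 (95% interval -1.81 to -0.83, adjusted p 0.00130, edgeR).

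Cdh4, known from retina, brain and kidney, was counted at 1.91, 1.55 and 1.90 TPM in the WT libraries and at 2.76, 3.49 and 3.69 TPM in the knockout libraries. Every knockout library lay above every WT library. The log2 fold change of Cdh4 was 0.93 (95% interval 0.49 to 1.37, adjusted p 0.00682, edgeR), a 1.90-fold rise in mean CPM. Mean levels were 1.79 ± 0.204 TPM for WT and 3.31 ± 0.488 TPM for the knockout (SD, n = 3 each). The ratio of Cdh2 to Cdh4 in TPM went from 2.27 ± 0.203 in WT to 0.480 ± 0.105 in the knockout (SD, n = 3 each). The calls of Cdh1, Cdh2 and Cdh4 held in each of 16 alternative settings, with a highest adjusted p of 0.0411 for Cdh4 without WT replicate B.

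The type II genes had the fewest counts of the 6. Cdh6, known from developing kidney and neural crest, had 30, 34 and 24 counts in the WT libraries and 40, 56 and 61 counts in the knockout libraries. Scaled, WT held 1.42 ± 0.266 CPM and the knockout 2.58 ± 0.448 CPM (SD, n = 3 each). The knockout libraries were all above the WT libraries, but the log2 fold change of 0.86 (95% interval 0.14 to 1.57) had an adjusted p of 0.112 in edgeR and passed in 0 of 16 alternative settings. For Cdh11 there were 24, 10 and 12 counts in the WT libraries and 4, 12 and 12 counts in the knockout libraries. The 4 counts of knockout replicate A lie under the floor of 6 counts and were taken as not distinct from 0. The highest and the lowest library of Cdh11 were WT replicate A and knockout replicate A, and the others differed by little. Its log2 fold change of -0.68 had an interval from -1.87 to 0.51 (adjusted p 0.482, edgeR), which spans falls and rises.

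**Figure D2:**
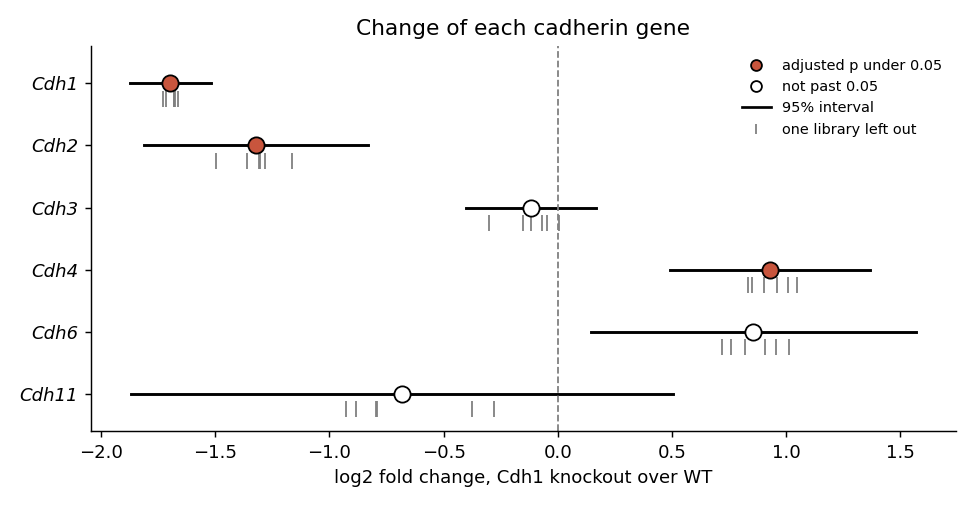
Log2 fold change of each cadherin gene in the knockout over WT, with its 95% interval as a line and each fit with a library removed as a grey tick below it. Filled circles passed an adjusted p of 0.05 (Cdh1 at -1.70, Cdh2 at -1.32, Cdh4 at 0.93), and the open circle of Cdh3 sits at -0.12 with an interval that spans 0.

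Per length, the order of the 6 genes in WT was Cdh1 (318 TPM), Cdh3 (29.1 TPM), Cdh2 (4.04 TPM), Cdh4 (1.79 TPM), Cdh6 (0.439 TPM) and Cdh11 (0.326 TPM). Neighbours in that order did not overlap between libraries, except Cdh6 and Cdh11. In the knockout the order was Cdh1 (95.4 TPM), Cdh3 (26.2 TPM), Cdh4 (3.31 TPM), Cdh2 (1.58 TPM), Cdh6 (0.773 TPM) and Cdh11 (0.195 TPM), and no neighbours overlapped. Cdh2 and Cdh4 had changed places.

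The rise of Cdh4 was small beside the loss of Cdh1. Cdh4 gained 1.53 TPM, and Cdh6, which was not called, had 0.334 TPM more in the knockout, against the 222 TPM by which Cdh1 fell. The sum of the 6 genes was 366, 365 and 329 TPM in the WT libraries and 131, 131 and 120 TPM in the knockout libraries, so 36.1% of the WT sum was left. The sum of the 5 genes other than Cdh1 was 35.7 ± 1.65 TPM in WT and 32.0 ± 5.0 TPM in the knockout (SD, n = 3 each), with overlapping libraries. Cdh1 made up 89.9% ± 0.377 of the summed TPM in WT and 74.9% ± 3.20 in the knockout. The share of Cdh3 was 8.24% ± 0.458 in WT and 20.5% ± 3.84 in the knockout, while its own level overlapped between genotypes.

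**Figure D3:**
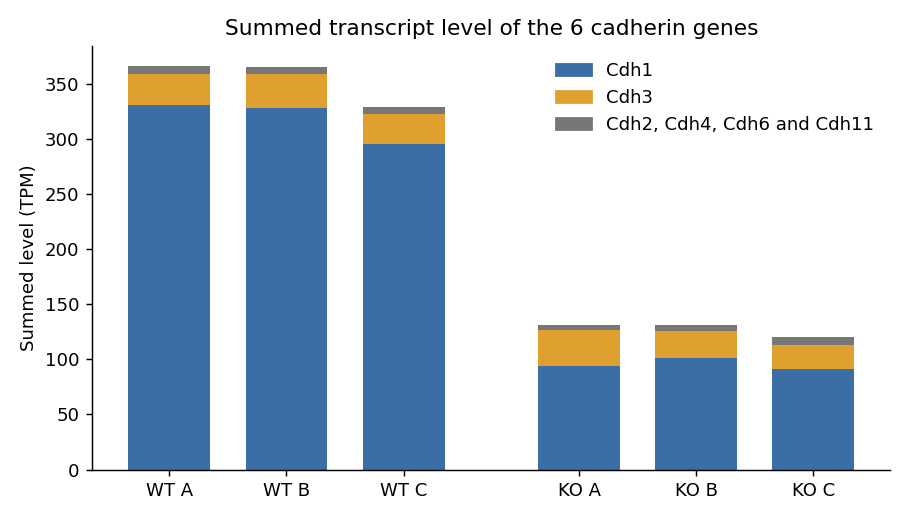
Summed TPM of the 6 cadherin genes in each library, stacked as Cdh1 (blue), Cdh3 (yellow) and the other 4 genes together (grey). The bars reach 329 to 366 TPM in WT and 120 to 131 TPM in the knockout, and Cdh1 is the largest part of each.

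Marker genes of other cell types also differed between the genotypes. All 10 primitive endoderm markers (Gata6, Gata4 and Sox17 among them) were called higher in the knockout, and their summed level lay between 107 and 143 TPM in WT and between 299 and 556 TPM in the knockout, highest in knockout replicate C. Of these calls, Dab2, whose libraries overlapped, was lost in 5 of 6 fits with a library removed, all but the one without knockout replicate A. Foxa2 was lost without WT replicate A, B or C or knockout replicate C, and the other 8 were kept. Knockout replicate C also had the highest Cdh4 and Cdh6 and the lowest Cdh3. Among the knockout libraries alone it had the highest Cdh2 (1.93 TPM) and Cdh11 (0.261 TPM) and the lowest Cdh1 (91.4 TPM). Of the 7 tested neural markers, 0 were called higher and 3 lower, namely Pax6, Nes and Map2. The call of Map2 was lost without WT replicate A, WT replicate B or knockout replicate B. Sox1 went the other way and was called higher without knockout replicate A (adjusted p 0.000646, edgeR) and with no count filter. Summed neural levels overlapped between the genotypes, at 109 to 151 TPM in WT and 86.8 to 121 TPM in the knockout. Of the 7 tested trophoblast markers, 0 were called higher and 1 lower, with sums of 216 to 244 TPM in WT and 146 to 213 TPM in the knockout. Of 10 fibroblast markers, 7 were tested, 1 was called higher and 2 lower, and the sums were 121 to 131 TPM in WT and 82.8 to 103 TPM in the knockout. Most of that sum was Vim, at 99.5 ± 1.49 TPM in WT and 69.6 ± 14.8 TPM in knockout cells (SD, n = 3 each), whose call was lost without WT replicate A, B or C or knockout replicate B. Without knockout replicate A, Col1a2 (adjusted p 0.00993, edgeR) and Col3a1 (adjusted p 0.00219, edgeR) were called lower as well. The shares called were 100% of the tested primitive endoderm, 42.9% of the neural, 14.3% of the trophoblast and 42.9% of the fibroblast markers, beside 13.3% of all tested genes. The fibroblast collagen gene Col3a1 had 114 counts in WT replicate A, where Cdh11 was highest, against 12 and 20 counts in WT replicates B and C, and it had 42 counts in knockout replicate A, where Cdh11 was lowest. The fibroblast markers Postn, Lum and Dcn had too few counts to be tested, and Postn was at 0 counts in WT replicates B and C and knockout replicates B and C. The part of such cells in the cadherin levels was not tested.

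Among the 16 other cadherin genes, 5 passed the filter on low counts, and 1 was called higher and 1 lower (40% beside the 13.3% of all tested genes, over 5 genes). Cdh24, a type II cadherin that binds catenins, was counted at 13.2, 10.4 and 11.5 CPM in the WT libraries and at 26.9, 20.6 and 18.5 CPM in the knockout libraries. Its log2 fold change was 0.91 (standard error 0.16, adjusted p 0.00175, edgeR). Cdh24 lies on chromosome 14, where the median log2 fold change of 622 tested genes was 0.53, whereas Cdh1, Cdh3 and Cdh11 lie on chromosome 8, with a median of 0.01 over 947 genes. In TPM, Cdh24 came next after Cdh1 and Cdh3 among all cadherins listed here, at 8.44 ± 1.15 TPM in WT and 15.4 ± 3.13 TPM in the knockout (SD, n = 3 each). Cdh10, a type II cadherin of the brain, had 36, 26 and 10 counts in the WT libraries and 2, 6 and 8 counts in the knockout libraries (log2 fold change -2.11, adjusted p 0.0326, edgeR). The 2 counts of Cdh10 in knockout replicate A lie under the floor of 6 counts. Cdh10 was no longer called in 5 of 6 fits with a library removed, all but the one without WT replicate C, with an adjusted p of up to 0.185 without WT replicate A. Cdh5 (VE-cadherin, of endothelium), Cdh15 (M-cadherin, of muscle) and Cdh22 were tested and not called. Cdh7 was not tested, with 14, 6 and 8 counts in WT and 0 counts in each knockout library. Cdh12 had 0 counts in every library.

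Among the partners that join the tail directly or through catenins, Ctnna1 and Ajuba rose and Lima1 fell. Of 13 listed genes, 11 were tested, 2 were called higher and 1 lower (27.3%, beside 13.3% of all tested genes), and their median log2 fold change was 0.06. Ctnnb1 (beta-catenin) had a log2 fold change of 0.07 (95% interval -0.11 to 0.26), Jup (plakoglobin) 0.06 (-0.17 to 0.28) and Ctnnd1 (p120-catenin) 0.22 (-0.04 to 0.48), and none of these was called. Ctnna1, the alpha-catenin that joins the complex to actin, rose from 648 ± 19.9 to 817 ± 31.3 CPM (SD, n = 3 each, log2 fold change 0.33, adjusted p 0.00948, edgeR), and lost its call without WT replicate A (adjusted p 0.0628). Ajuba, a LIM protein that binds alpha-catenin, rose with a log2 fold change of 0.76 (adjusted p 0.00205, edgeR) and lies on chromosome 14. Lima1 (EPLIN), which links alpha-catenin to actin, was counted at 196, 182 and 167 CPM in the WT libraries and at 131, 111 and 120 CPM in the knockout libraries, a fall with no overlap (log2 fold change -0.59, adjusted p 0.000631, edgeR). Without WT replicate C the list had 5 called genes.

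Genes for the maturation, shedding and turnover of cadherins followed next. All 15 were tested, 3 were called higher and 0 lower (20%, beside 13.3% of all tested genes called and 7.6% called higher). In 5 of the 15 every knockout library lay above every WT library, as in 15.7% of all tested genes. Mmp14, a membrane-bound matrix protease, was counted at 26.3, 24.7 and 28.6 CPM in the WT libraries and at 63.3, 83.0 and 83.6 CPM in the knockout libraries. This 2.89-fold rise (log2 fold change 1.53, adjusted p 2.7e-06, edgeR) exceeded the median of chromosome 14, on which Mmp14 lies. Adam15, a membrane protease reported to cleave E-cadherin, rose from 21.6 ± 2.45 to 35.0 ± 4.13 CPM (SD, n = 3 each, log2 fold change 0.69, adjusted p 0.00220, edgeR). Furin, a convertase that removes the propeptide of cadherins, rose by 0.37 on the log2 scale (adjusted p 0.0229, edgeR) and lost its call without WT replicate A (0.120), WT replicate B (0.0897) or knockout replicate C (0.0730). Adam10, the main sheddase of E-cadherin and N-cadherin, was not called (log2 fold change 0.14, 95% interval -0.10 to 0.37).

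Among transcription factors known to repress Cdh1, Twist1 and Klf8 rose and Zeb2 fell. Of 9 listed, 8 were tested, 2 were called higher and 1 lower (37.5%, beside 13.3% of all tested genes). In 2 of the 8 the genotypes did not overlap, as in 30.7% of all tested genes. Zeb2 fell with a log2 fold change of -1.98 (adjusted p 4.3e-05, edgeR), from 10.7, 13.1 and 10.1 CPM in the WT libraries to 2.1, 3.23 and 3.18 CPM in the knockout libraries. Twist1 rose in the opposite sense, from 1.89, 5.25 and 4.0 CPM to 11.1, 7.43 and 9.28 CPM (log2 fold change 1.32, adjusted p 0.00867, edgeR). Klf8 was called at the edge of the threshold (log2 fold change 0.50, adjusted p 0.0478, edgeR) with overlapping libraries, and it was no longer called in 5 of 6 fits with a library removed, all but the one without knockout replicate A, with an adjusted p of up to 0.188 without knockout replicate C. Snai1 (log2 fold change 0.53, 95% interval -0.25 to 1.32) and Zeb1 (0.28, -0.14 to 0.70) were not called.

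Factors known to activate epithelial genes split in both directions. All 9 were tested, 2 were called higher and 3 lower (55.6%, beside 13.3% of all tested genes, with 7.6% higher and 5.71% lower). Klf4, which binds and activates the Cdh1 promoter in epithelial cells, was counted at 236, 195 and 279 CPM in the WT libraries and at 360, 616 and 562 CPM in the knockout libraries (log2 fold change 1.12, adjusted p 0.000398, edgeR). Klf5, on chromosome 14, rose with a log2 fold change of 0.79 (adjusted p 0.00735, edgeR) and lost its call without WT replicate B (0.0684). Tfap2c and Tfap2a, AP-2 factors of trophoblast and surface ectoderm, fell with log2 fold changes of -1.06 (adjusted p 2.5e-05, edgeR) and -1.99 (adjusted p 0.00187, edgeR). Grhl2, a grainyhead factor that activates Cdh1 and other junction genes, was lower at a log2 fold change of -0.79 (adjusted p 0.0325, edgeR). Grhl2 was no longer called in 5 of 6 fits with a library removed, all but the one without knockout replicate A, with an adjusted p of up to 0.135 without WT replicate A. The list had 3 called genes when WT replicate B was left out.

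**Figure D4:**
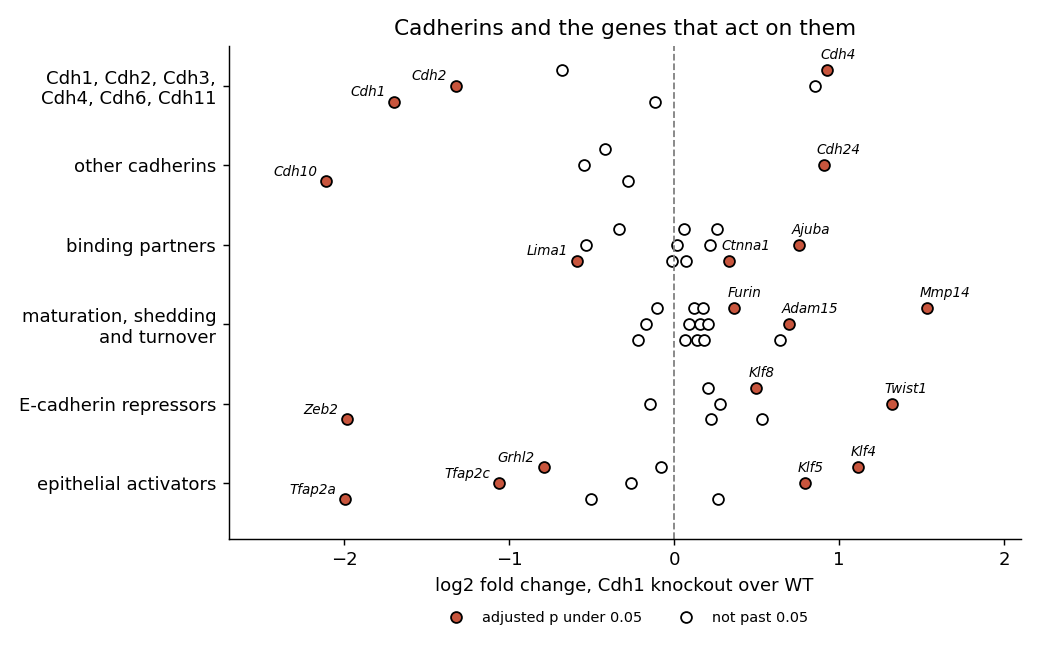
Log2 fold change of every tested gene in the cadherin list and the 5 other lists, with genes past an adjusted p of 0.05 filled and named and the others open. Mmp14 at 1.53 is the highest in the list of maturation, shedding and turnover genes, and Zeb2 at -1.98 and Twist1 at 1.32 lie at the ends of the repressor list.

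The last comparison asked whether genes beside the disrupted Cdh1 changed. Of 79 genes within 1 Mb of Cdh1, 54 were tested, and 4 were called higher and 1 lower (9.26%, beside 13.3% of all tested genes). Their median log2 fold change was 0.00. The share over all tested genes includes chromosomes 1 and 14, whose median log2 fold changes were -0.33 and 0.53. The nearest tested gene downstream, Tango6, starts 12.8 kb after the end of Cdh1. It fell from 71.9 ± 2.63 to 58.3 ± 0.734 CPM (SD, n = 3 each, log2 fold change -0.30, adjusted p 0.0336, edgeR). Tango6 was no longer called in 5 of 6 fits with a library removed, all but the one without knockout replicate A, with an adjusted p of up to 0.127 without WT replicate C. The other called neighbours lay between 266 and 718 kb away. Nqo1, a quinone reductase, rose from 26.3 ± 2.83 to 65.5 ± 7.27 CPM (SD, n = 3 each, log2 fold change 1.32, adjusted p 6.2e-06, edgeR). Pla2g15, a lysosomal phospholipase, changed by 0.58 on the log2 scale (adjusted p 0.00175, edgeR) and the potassium chloride cotransporter gene Slc12a4 0.46 (adjusted p 0.00960, edgeR), the latter with 0.0657 without WT replicate B. Sntb2, a syntrophin gene, was higher by 0.33 on the log2 scale (adjusted p 0.0409, edgeR) and was no longer called in 5 of 6 such fits, all but the one without knockout replicate A. The list had 3 called genes without WT replicate A, WT replicate C, knockout replicate B or knockout replicate C, and 2 without WT replicate B.

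**Figure D5:**
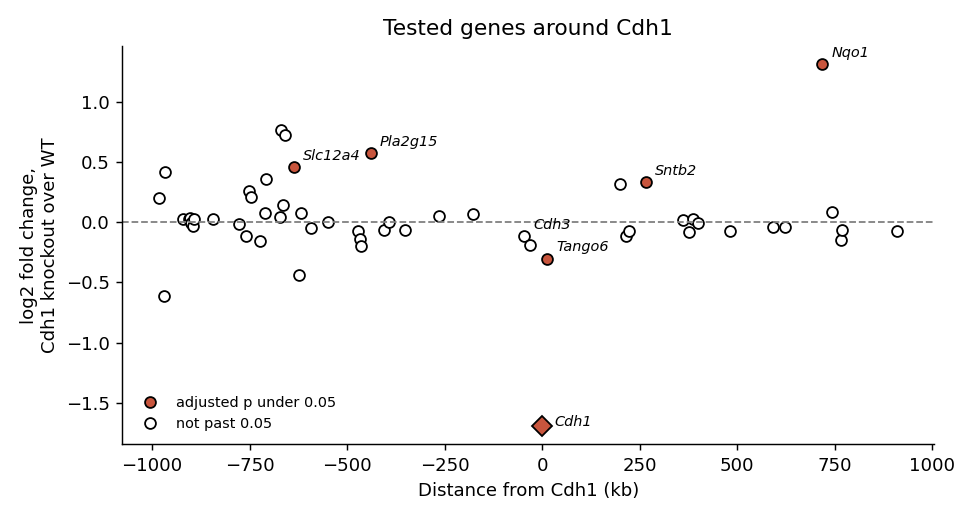
Log2 fold change of the 54 tested genes within 1 Mb of Cdh1 against their distance from Cdh1 in kb, with negative distances upstream and genes past an adjusted p of 0.05 filled. Cdh1 itself (diamond) is at -1.70, Cdh3 46.1 kb upstream at -0.12 and Tango6 12.8 kb downstream at -0.30.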

How the data were processed

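Strand-specific libraries were made from total RNA of 6 samples, per the labels' protocols. A single table was deposited by the authors. These counts, as the authors deposited them, are whole numbers per gene and library with no normalization, beside exon positions and lengths, per the file header. The submitters' processing notes name cutadapt 2.10, STAR 2.7.5b, featureCounts 2.0.1 and GRCm38, and the settings are not given in the sources used here. Among counts from 1 to 10, between 78.1% and 83.1% were even in each library, against 50.2% to 52.1% among high counts. The pair setting is not given. If each mate was counted on its own, 2 counts stand for 1 fragment, and a floor of 6 counts for 3. Therefore counts divided by 2 (rounded up) were an alternative. Levels under 6 counts in a library were taken as not distinct from 0. Such a floor covers counting error only.

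Gene symbols came from a reference table of gene names, matched on the identifier without its version, for 55141 of 55401 genes. Exon overlaps were checked for the 6 cadherin genes only, from the positions in the table. The counts were fitted in R 4.3.3 with edgeR 4.0.16: filterByExpr by genotype (minimum count 10, minimum total 15), TMM scaling, glmQLFit and glmQLFTest with genotype as the only term, and Benjamini-Hochberg adjustment over all tested genes. The threshold for a call was 0.05. Standard errors came from the F statistic, and 95% intervals from them and the total degrees of freedom of the test (residual plus prior). Transcript runs were compared on the coding transcript with the longest coding part. On simulated counts for this comparison over 17325 genes, 200 genes were changed. Of these, 69% of genes changed 2-fold and 88% of genes changed 4-fold were called, and 2.48% of the called genes were false. The data had 2307 called genes, so these shares need not hold for them.

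Besides the 6 genes, lists held other cadherins, binding partners, maturation, shedding and turnover genes, E-cadherin repressors, epithelial activators, genes within 1 Mb of Cdh1, and markers of embryonic stem cells, fibroblasts, primitive endoderm, trophoblast and neural cells. The members and lists were chosen with earlier results of these data known. Named are the 6 genes, every called gene among other cadherins and Cdh1 neighbours, in each other list up to 5 called genes with the largest changes, fixed anchors (Ctnnb1, Ctnna1, Ctnnd1, Jup, Adam10, Snai1, Zeb1, Zeb2, Klf4 and Grhl2) and the 3 genes with the nearest pattern to each cadherin with a mean of at least 50 counts. Cdh7, Cdh12, Cdh5, Cdh15, Cdh22 and the markers named singly were added after their values were seen. Alternatives were other scaling factors, other filters, DESeq2 1.42.0, limma-voom (limma 3.58.1), the replicate letter as a block, removal of chromosomes 1, 14 and Y, and leaving out each library.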

Additional observations from a re-analysis of the deposited data

How the results depend on the processing

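In 16 alternative settings Cdh1 ranged from -1.73 to -1.66, Cdh2 from -1.49 to -1.16 and Cdh4 from 0.83 to 1.05 in log2 fold change, and each kept its call. Cdh3 ranged from -0.30 to 0.0071, the latter without knockout replicate C. Cdh6 and Cdh11 kept their sign and were not called in any setting that tested them. Over all genes the count of 2307 became 1535 without chromosomes 1, 14 and Y, 1242 at an adjusted p under 0.01, and 1374 to 2784 when a library was left out. The 2 called genes among other cadherins became 1 with limma-voom and with the replicate block, where Cdh10 lost its call. The number was also 1 with a filter of CPM over 1 and with counts divided by 2, where Cdh10 was not tested. Removal of those chromosomes took out Cdh24 and left 1. With no count filter 3 were called, and leaving out a library gave 1 to 2. Cdh24 was called in each of the 15 settings that tested it. Leaving out a library gave 2 to 5 called partners, 3 to 6 epithelial activators and 2 to 5 Cdh1 neighbours. By CPM without length, Cdh1 was 89.5% of the summed level in WT. Same-lettered libraries of the genotypes had correlated deviations of 0.189 (A), -0.101 (B) and 0.383 (C) over genes. Between different letters they ranged from -0.381 (WT replicate C with knockout replicate A) to 0.228 (WT replicate B with knockout replicate A). The labels do not say what the letters share, and the letters were not taken as pairs. With the letter as a block, 2686 genes were called. In that fit the adjusted p was 0.000678 for Cdh2 and 0.00512 for Cdh4 (edgeR). The calls of the 6 genes stayed as they were, and Cdh10 lost its call. Cdh11 had 4 to 24 counts per library, and its 95% interval was the widest of the 6 genes; the part of depth in its spread was not tested.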

Other observations

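The genes most like each cadherin over the 6 libraries were found among 12847 other genes averaging 50 counts or more, by the Euclidean distance between log2 CPM values centred on their own mean. Nearest to Cdh1 was Ripply1 (distance 0.269), followed by Gm17657 (0.334) and Lrrk2 (0.356), all at a far lower level, with Ripply1 averaging 4.91 ± 0.660 CPM for WT and 1.35 ± 0.135 CPM for the knockout (SD, n = 3 per genotype). Nearest to Cdh2 were Majin (0.105), Cdkn2a (0.379) and Tuba3a (0.382), and nearest to Cdh4 were Trim35 (0.0929), Tbc1d25 (0.125) and Trim7 (0.134). Nearest to Cdh3 were Zfp703 (0.0906), Slc22a5 (0.107) and Cdc25c (0.122), each of them highest in knockout replicate A and lowest in knockout replicate C, as Cdh3 was. Such a shared order is largely given by the choice of these genes from the same values. With 6 libraries in 2 genotypes, the distances describe these libraries only. Cdh6 and Cdh11 had fewer than 50 counts on average and were not searched.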
